A study of Mus musculus with 12 samples.

Results

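Sphingosine 1-phosphate (S1P) is a lipid messenger, and its receptors and main enzymes were followed here as 8 genes: the receptors S1pr1, S1pr2, S1pr3 and S1pr5, the sphingosine kinases Sphk1 and Sphk2, the lyase Sgpl1 and the exporter Spns2. They were taken by name, as a known pathway, from the 48709 genes of the count files, and all 8 had enough counts to be tested. RNA was sequenced from 12 samples of primary hippocampal neurons, cultured from embryonic day 17 (E17) embryos of CD1 mice. At day in vitro 10 (DIV10) the cells received lipid nanoparticles loaded with a mimic, a synthetic RNA that acts as miR-148a-3p, or with a negative control oligonucleotide, and they were harvested at DIV12 after 48 h. The study's methods give ApoE4 to all wells with the nanoparticles and pool the hippocampi of several embryos. Such cultures hold glial cells beside the neurons. Each group had 6 samples, and the comparison asks which transcripts differ when miR-148a-3p is raised. The series text calls the control a siRNA, the methods call it scrambled RNA, and the reagent list gives 1 negative control sequence, which may not be the oligonucleotide these samples received.

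S1P is made inside cells by phosphorylation of sphingosine, leaves through Spns2 and other transporters, and acts on G protein-coupled receptors at the cell surface. It is removed by phosphatases, which return sphingosine, or by the lyase, which cleaves it irreversibly. In the brain S1pr1 is strongly expressed by astrocytes and endothelial cells, S1pr3 is known to rise in reactive astrocytes and S1pr5 belongs to the oligodendrocyte lineage. MicroRNAs bind the 3′ untranslated region (UTR) of transcripts, mainly through their seed (bases 2 to 8), and usually lower the amount of transcript or protein.

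The mimic and the negative control are shown first, because the search for sites below starts from their seeds. Sequences run 5′ to 3′ and the capitals mark the seed. The mimic is identical to mature mmu-miR-148a-3p of RefSeq, and 2 other mouse microRNAs of RefSeq, miR-148b-3p and miR-152-3p, carry the same seed.
miR-148a-3p mimic: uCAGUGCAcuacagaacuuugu
negative control: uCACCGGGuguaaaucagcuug
mmu-miR-148b-3p: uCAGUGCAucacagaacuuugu
mmu-miR-152-3p: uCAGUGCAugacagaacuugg

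A site was counted where the longest annotated 3′ UTR held TGCACTG, the match to bases 2 to 8 (7-base m8 site), or GCACTGA, the match to bases 2 to 7 followed by A (7-base A1 site), and as an 8-base site where both met. Only the transcript strand was searched. The 8 members held 8 such sites, in 4 genes: 3 in S1pr3, 2 in S1pr1, 2 in S1pr2 and 1 in Sphk2. S1pr5, Sphk1, Sgpl1 and Spns2 held none, and none of the 8 held one for the negative control seed. Sgpl1 held 2 matches to bases 2 to 7 alone, which were not counted as sites. S1pr1 is on the study's list of predicted miR-148a-3p targets.

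The sites of the 3 receptors are printed with their surroundings, since these are the members that were lower in mimic. Capitals mark the site, which in A1 and 8-base sites includes the A after the seed match. Coordinates are GRCm38 (mm10) and cover each printed stretch, the site with its surroundings, while distances from the stop codon are those of the site. All lie in the 3′ UTR. S1pr1 and S1pr2 are on the minus strand and S1pr3 on the plus strand. The S1pr1 stretches lie at chr3:115711509-115711538 (8-base, 271 bases after the stop codon) and chr3:115711591-115711620 (m8, 189 bases after it). Those of S1pr2 lie at chr9:20967322-20967351 (A1, 136 bases after the stop codon) and chr9:20964838-20964867 (m8, 2619 bases after it). Those of S1pr3 lie at chr13:51420136-51420165 (m8, base 229), chr13:51420443-51420472 (m8, base 536) and chr13:51421952-51421981 (A1, base 2046).
S1pr1, 8-base: tggagctttgatttTGCACTGAgccaaagg
S1pr1, m8: gtaattgtgaacaaTGCACTGggaagggtg
S1pr2, A1: aggtgaccaacggagGCACTGActaatcag
S1pr2, m8: aacagtgcaatctcTGCACTGgggaagtgg
S1pr3, m8 at 229: agctgctgacacggTGCACTGccttcggat
S1pr3, m8 at 536: cttcccagtgccctTGCACTGgtgttctaa
S1pr3, A1: ctagcctccgagacaGCACTGAgacatcgg

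**Figure D1:**
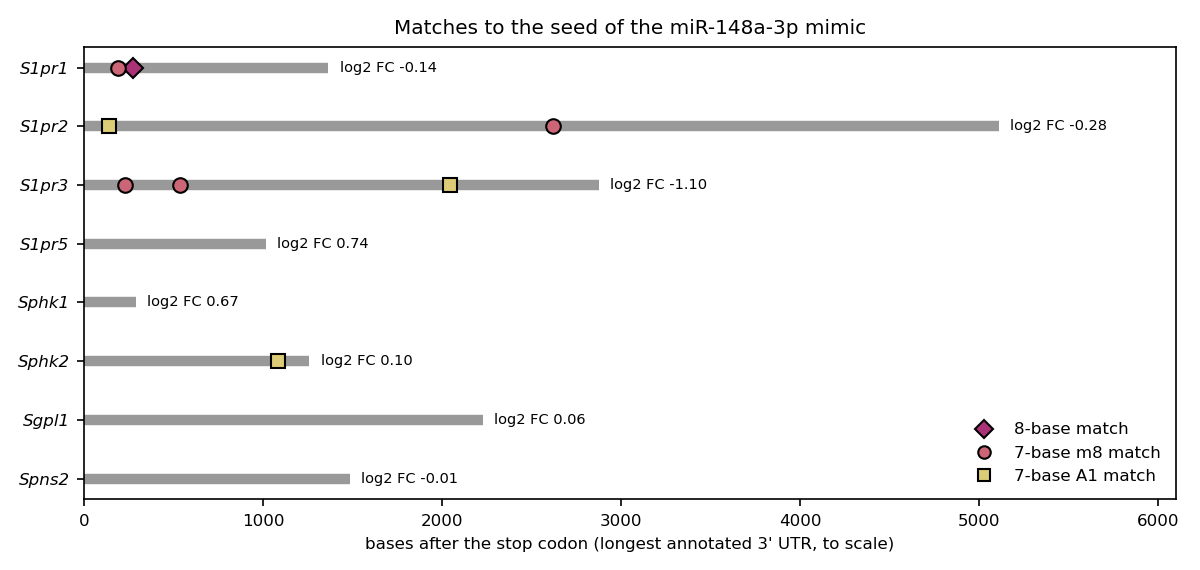
Each grey bar is the longest annotated 3′ UTR of a member, drawn to scale in bases after the stop codon, with the matches to the mimic seed as symbols and the log2 fold change (mimic over control) at its end. The 3 members with 2 or more sites have fold changes of -0.14, -0.28 and -1.10, Sphk2 with 1 site has 0.10, and the 4 members without a site range from -0.01 to 0.74.

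Library totals ranged from 20018234 to 37149112 counts, and control replicates 1 and 2 were the shallowest. These 2 libraries also stood apart from the other controls, with a chi-square of their gene counts, divided by its degrees of freedom, of 19.4 to 42.7 against controls 4, 5 and 6, compared with 1.78 to 4.47 among those 3, so each member is given with and without them. The labels do not say whether the samples came from separate cultures, so the p-values measure the spread between these samples, which may be technical. In bulk samples fewer cells of a type and less RNA per cell cannot be told apart.

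Of the 8 members, 3 were lower in mimic (S1pr1, S1pr2 and S1pr3), 1 was higher (S1pr5) and 4 did not pass the threshold of an edgeR adjusted p under 0.05. Over all 18847 genes tested, 22.2% were called, 11.5% higher and 10.7% lower. The median log2 fold change was 0.026 over the members and -0.012 over all genes tested. The groups of 6 libraries did not overlap for 1 member, S1pr3, against 13.3% of all genes tested. The receptors moved in different directions and by very different amounts, and none of the enzymes and transporters among the members was called. Levels below are CPM, counts scaled by the TMM library size, and are given as mean ± SD of the 6 libraries in a group. An interval is the 95% interval of the log2 fold change.

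**Figure D2:**
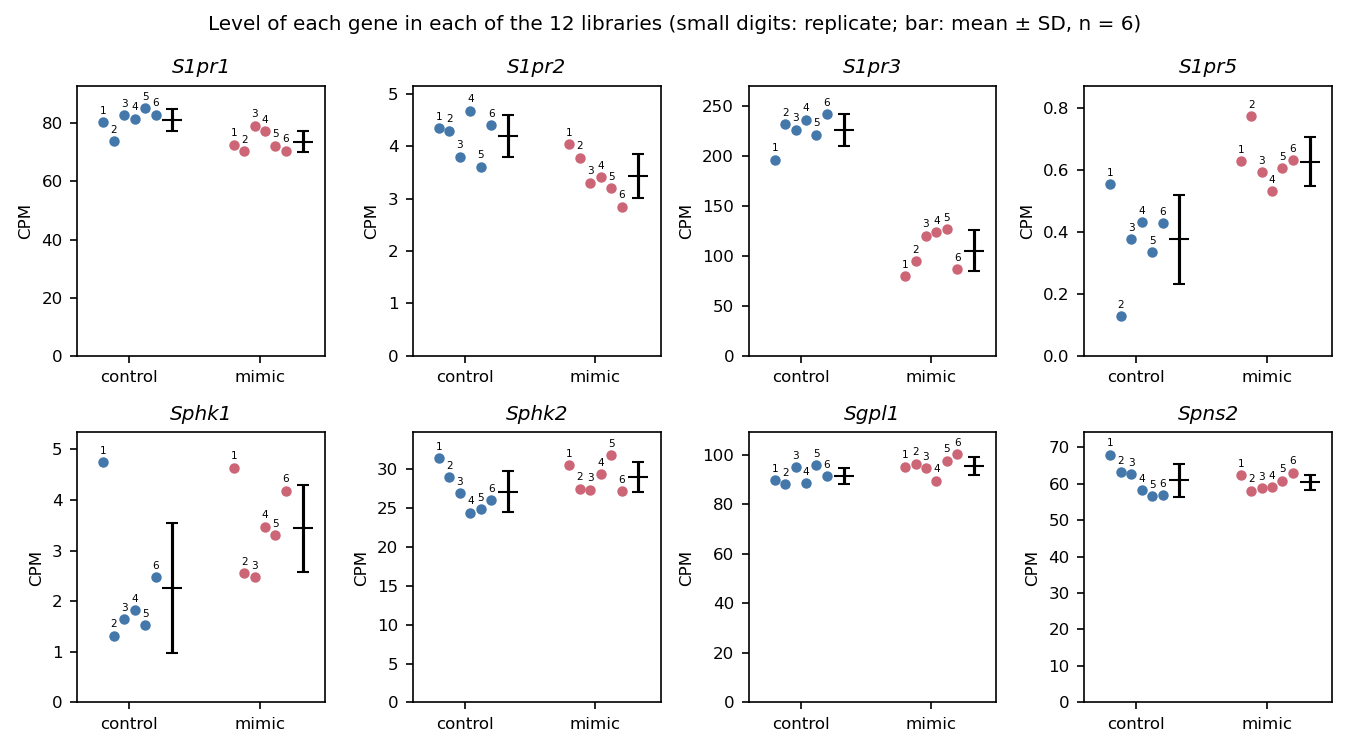
CPM of each member in each of the 12 libraries (points, with the replicate number; blue control, red mimic) with the mean ± SD of each group of 6; every axis starts at 0. S1pr3 is separated, with controls from 196 to 242 CPM and mimic libraries from 79.5 to 126 CPM, while the groups of the other 7 genes overlap, and control 1 is far above the other controls for Sphk1.

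S1pr3 (ENSMUSG00000067586, chr13:51408639-51422797, plus strand) encodes a receptor that couples to several G proteins, among them Gq and the G12/13 family. It had the highest mean count of the 8 genes. The control libraries lay at 196 CPM (lowest), 229 CPM (median) and 242 CPM (highest). The mimic libraries lay at 79.5, 107 and 126 CPM. Every mimic library was below every control library. The mean fell from 225 ± 16.1 to 105 ± 20.7 CPM, a 2.14-fold lower level (log2 fold change -1.10, SE 0.11, interval -1.33 to -0.87, edgeR adjusted p = 3.33e-06). It was -1.13 without control replicates 1 and 2 (adjusted p = 0.00033) and remained between -1.16 and -1.03 whichever single library was left out. Of 18847 genes tested, 85 had a log2 fold change as low or lower, S1pr3 included. Among the 1304 genes with at least as many counts on average, S1pr3 had the lowest. Mimic replicates 1, 2 and 6 were the lowest at 79.5, 94.4 and 86.9 CPM, and replicates 3, 4 and 5 the highest at 120, 124 and 126 CPM. The exons of S1pr3 share 45 bases with Gm32834, a long noncoding RNA on the opposite strand, and whether the counting used strand is not stated.

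S1pr1 (ENSMUSG00000045092, chr3:115710433-115715072, minus strand) encodes the receptor that couples to Gi and that controls lymphocyte exit and vessel stability. In control it lay at 73.9 CPM (lowest), 82.2 CPM (median) and 85.1 CPM (highest). Mimic libraries lay at 70.4, 72.5 and 79.1 CPM. The groups overlapped through control 2, which was below 2 of the mimic libraries, and 4 of 6 mimic libraries were below all controls. The mean was 81.1 ± 3.87 CPM in control and 73.7 ± 3.63 CPM in mimic, a difference of -9.17% (log2 fold change -0.14, SE 0.042, interval -0.23 to -0.051, edgeR adjusted p = 0.0222). Without control replicates 1 and 2 it was -0.17 (adjusted p = 0.00038). The call was lost when any 1 of control 3, control 5, mimic 2 or mimic 6 was left out, with an adjusted p of up to 0.0571. The decrease of S1pr1, which holds the only 8-base site among the members, was thus small beside that of S1pr3.

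S1pr2 (ENSMUSG00000043895, chr9:20962361-20976781, minus strand) encodes a receptor that acts mainly through the G12/13 family. It was expressed at a low level, between 81 and 151 counts a library. The 6 control values ran from 3.61 CPM (lowest) over 4.32 CPM (median) to 4.67 CPM (highest), and the mimic values from 2.85 over 3.36 to 4.04 CPM. The ranges overlapped, with 4 of 6 mimic libraries below all controls. The mean was 4.19 ± 0.400 CPM in control and 3.43 ± 0.424 CPM in mimic (log2 fold change -0.28, SE 0.094, interval -0.48 to -0.082, edgeR adjusted p = 0.0406). This call was close to the threshold. It was lost without control replicates 1 and 2 (-0.26, adjusted p = 0.0611) and when any 1 of 7 single libraries was left out (control 2, 4 or 6, mimic 3, 4, 5 or 6), with an adjusted p of up to 0.100.

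S1pr5 (ENSMUSG00000045087, chr9:21242912-21248443, minus strand), the receptor of oligodendrocytes and natural killer cells, was the member that rose. It had only 3 to 24 counts a library, so its levels carry a large counting error. Levels in control were 0.127 CPM (lowest), 0.403 CPM (median) and 0.555 CPM (highest), and in mimic 0.532, 0.618 and 0.776 CPM. The mimic libraries were above all controls in 5 of 6 cases. The mean was 0.377 ± 0.143 CPM in control and 0.628 ± 0.0807 CPM in mimic (log2 fold change 0.74, SE 0.22, interval 0.26 to 1.21, edgeR adjusted p = 0.0247), and 0.67 without control replicates 1 and 2 (adjusted p = 0.0209). The call was lost without control 5 or without mimic 2, with an adjusted p of up to 0.0524. Its exons share 51 bases with Gm48303 on the opposite strand. S1pr4, the fifth S1P receptor and a lymphocyte gene, had 1 to 5 counts a library and was not tested.

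**Figure D3:**
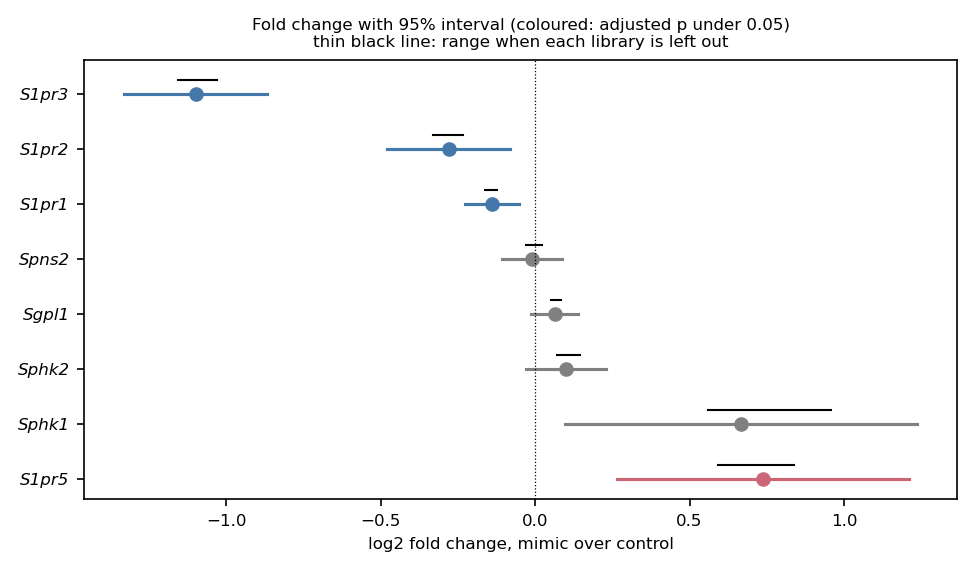
Log2 fold change (mimic over control) of the 8 members with its 95% interval, blue where lower and red where higher at an adjusted p under 0.05, and above each a black line for the range over fits that each omit 1 library. S1pr3 lies apart at -1.10, S1pr1 and S1pr2 lie just below 0, and the intervals of S1pr5 and Sphk1 are the widest.

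Per length of the merged exons, the order of the receptors differed between the groups. In control, S1pr3 stood first at 50.5 ± 3.60 CPM per kb and S1pr1 second at 26.6 ± 1.27 CPM per kb, with no overlap between the 2 genes. In mimic they lay at 23.6 ± 4.63 and 24.2 ± 1.19 CPM per kb, within each other's range. S1pr2, S1pr5 and S1pr4 were far below in both groups, at 0.525, 0.151 and 0.0459 CPM per kb in control and 0.430, 0.251 and 0.0225 CPM per kb in mimic.

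Expressed as a share of the 5 S1P receptors per length, S1pr3 made up 64.8 ± 2.08% in control and 48.3 ± 4.41% in mimic, and S1pr1 34.3 ± 1.99% and 50.3 ± 4.18%. The lowest control share of S1pr3 was 61.7% and its highest mimic share 53.7%. The share of S1pr2 was 0.676% in control and 0.900% in mimic, and that of S1pr5 0.195% and 0.528%. Summed over the 5 receptors, the level was 77.9 ± 3.75 CPM per kb in control and 48.5 ± 5.43 CPM per kb in mimic, a difference of -37.7%. The lowest control library, at 71.2 CPM per kb, was above the highest mimic library, at 53.8 CPM per kb. The larger share of S1pr1 in mimic thus came with a lower level of S1pr1 itself. These sums and shares follow from the receptor values above and were not tested.

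**Figure D4:**
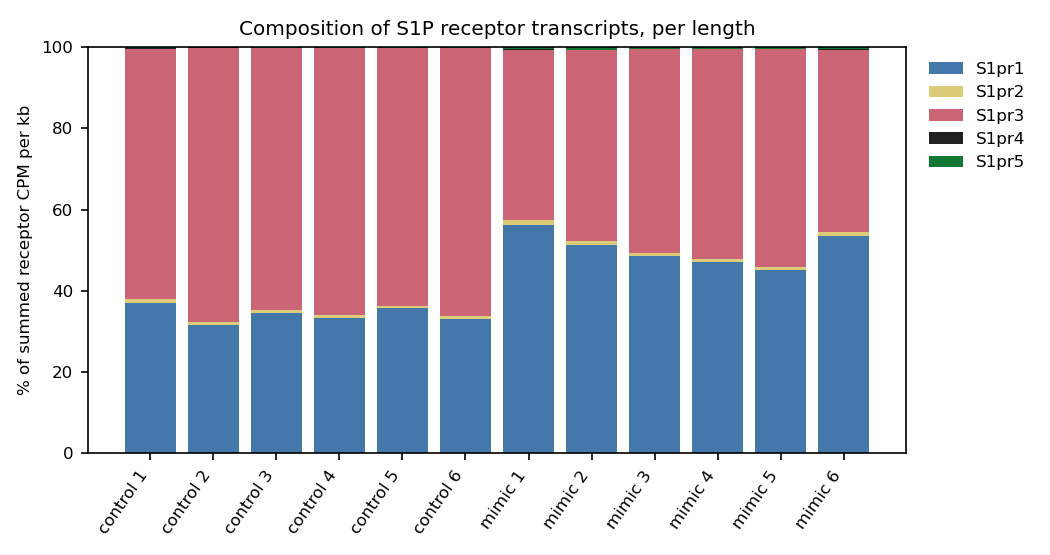
Stacked bars give, for each of the 12 libraries, the share of each S1P receptor in the summed receptor CPM per kb (0 to 100%). S1pr3 is the larger part in all 6 control libraries, at 61.7% or more, and between 42.0% and 53.7% in the mimic libraries.

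Sphk1 (ENSMUSG00000061878, chr11:116530925-116536674, plus strand) encodes the inducible sphingosine kinase of the cytosol, a gene that is also known to rise in reactive astrocytes. Its control values were 1.32 CPM (lowest), 1.73 CPM (median) and 4.75 CPM (highest), and its mimic values 2.47, 3.39 and 4.63 CPM. The highest control value came from control 1 alone, since the other 5 controls did not exceed 2.47 CPM. The mean was 2.26 ± 1.28 CPM in control and 3.44 ± 0.863 CPM in mimic, and the difference was not called (log2 fold change 0.67, SE 0.27, interval 0.096 to 1.24, edgeR adjusted p = 0.0918). Without control 1 it was 0.96 (adjusted p = 0.00093), and without controls 1 and 2 it was 0.89 (adjusted p = 0.0031), both past the threshold. Leaving out any other single library gave no call, with an adjusted p of up to 0.182. Control 1 was also the control with the highest summed level of oligodendrocyte lineage markers, 713 CPM against 421 to 451 CPM in the other 5 controls, and its part in the Sphk1 value was not tested.

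Sphk2 (ENSMUSG00000057342, chr7:45709467-45718002, minus strand), the sphingosine kinase that is also found in the nucleus and mitochondria, was much the larger kinase transcript. In the control libraries it was at 24.4 CPM (lowest), 26.5 CPM (median) and 31.5 CPM (highest), and in the mimic libraries at 27.2, 28.4 and 31.8 CPM. The ranges overlapped over most of their width, with control 1 again the highest control. The mean was 27.1 ± 2.67 CPM in control and 29.0 ± 1.93 CPM in mimic (log2 fold change 0.10, SE 0.062, interval -0.031 to 0.23, edgeR adjusted p = 0.289). It was called higher without control 1 (0.14, adjusted p = 0.0438) and without controls 1 and 2 (0.18, adjusted p = 0.0058). The exons of Sphk2 share 539 bases with Dbp and 373 bases with Rpl18 on the opposite strand. Dbp was itself lower in mimic (9.99 ± 1.000 against 7.62 ± 0.665 CPM, log2 fold change -0.38, adjusted p = 0.0012). Per length, Sphk1 made up 6.55 ± 2.79% of both kinases in control and 9.32 ± 2.02% in mimic, with control 1 at 11.6% and the other controls at 3.81% to 7.63%. The difference was 2.77 percentage points, and 3.78 without control 1. Sphk2 has 1 A1 site for the mimic, 1084 bases after its stop codon, and was not lower in mimic.

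Sgpl1 (ENSMUSG00000020097, chr10:61098642-61147703, minus strand) encodes S1P lyase. Control libraries lay at 88.1 CPM (lowest), 90.5 CPM (median) and 95.8 CPM (highest), and mimic libraries at 89.5, 95.7 and 100.2 CPM. The groups overlapped, with 3 of 6 mimic libraries above all controls. The mean was 91.4 ± 3.26 CPM in control and 95.5 ± 3.59 CPM in mimic (log2 fold change 0.063, SE 0.036, interval -0.012 to 0.14, edgeR adjusted p = 0.242). Without controls 1 and 2 it was 0.044 (adjusted p = 0.351). The interval leaves room for an increase of up to 1.10-fold.

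Spns2 (ENSMUSG00000040447, chr11:72451638-72489904, minus strand) encodes the exporter that releases S1P. Control libraries lay at 56.6 CPM (lowest), 60.4 CPM (median) and 68.0 CPM (highest), and mimic libraries at 58.1, 60.0 and 63.0 CPM. The mimic range lay inside the control range. The mean was 60.9 ± 4.49 CPM in control and 60.4 ± 2.01 CPM in mimic (log2 fold change -0.011, SE 0.046, interval -0.11 to 0.086, edgeR adjusted p = 0.908). Without controls 1 and 2 it was 0.043 (adjusted p = 0.404). The exons of Spns2 share 131 bases with Mybbp1a on the opposite strand, which was not called (adjusted p = 0.196).

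Among the enzymes and the exporter, levels per length in control were 14.9 ± 1.10 CPM per kb for Spns2 and 14.9 ± 0.531 CPM per kb for Sgpl1, which overlapped. Sphk2 followed at 6.52 ± 0.643 CPM per kb and Sphk1 at 0.472 ± 0.269 CPM per kb. In mimic the order was Sgpl1 (15.6), Spns2 (14.8), Sphk2 (6.96) and Sphk1 (0.720 CPM per kb), where Sgpl1 and Spns2 again overlapped. Sphk1 overlapped with S1pr2 in control and lay above it in mimic.

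The values of the 3 receptors and Sphk2, the members with a site, were then read against all tested genes with an annotated 3′ UTR, 15082 in number. Of these, 21.9% held at least 1 site for the mimic. A group of 572 genes (3.79%) held 2 sites, as S1pr1 and S1pr2 did, and 23.8% of it was lower and 10.1% higher in mimic. A group of 124 genes (0.822%) held 3 sites, as S1pr3 did, and 28.2% of it was lower and 8.87% higher. A group of 2578 genes (17.1%) held 1 site, as Sphk2 did, and 17.7% of it was lower and 12.2% higher. With 4 or more sites there were 34 genes, 26.5% of them lower and 5.88% higher. Of the 11774 genes with no site, 10.8% were lower and 14.1% higher. Of 626 genes with an 8-base site, as in S1pr1, 28.8% were lower and 8.31% higher. Of 666 genes with a site for the listed negative control sequence, which no member holds, 9.91% were lower and 23.6% higher. The median log2 fold change was -0.053 with 2 sites and -0.041 with 3 sites and 0.0013 with none. Genes as low as S1pr3 or lower were 2 of the 124 with 3 sites, S1pr3 included, and 61 of the 11774 with none. Genes with more sites also had longer 3′ UTRs, with a median of 4027.5 bases for 3 sites and 933.0 bases for none. A match of letters is a description and does not show that a site is used.

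Marker genes of the cell types that could carry these transcripts differed between the groups. Of 11 reactive astrocyte markers 9 were lower and 0 higher in mimic, and their summed level was 2535 to 2908 CPM in control and 1509 to 1929 CPM in mimic. Gfap, the intermediate filament of astrocytes, was at 1362 ± 70.2 CPM in control and 731 ± 107 CPM in mimic (log2 fold change -0.90, edgeR adjusted p = 5.5e-07), Vim, a second filament gene, changed by -0.29 and Serpina3n, a protease inhibitor, by -0.45. These markers moved in the direction of S1pr3 and against the values of Sphk1 (0.67, not called, and 0.96 without control 1), and their part in either was not tested. Of 10 general astrocyte markers 8 were higher and 0 lower, with a summed level of 3778 to 4344 CPM in control and 5637 to 5963 CPM in mimic. Slc1a2 and Slc1a3, the glutamate transporters of astrocytes, rose by 0.24 and 0.99 on the log2 scale and Aldoc, an astrocyte aldolase, by 0.24. These markers moved against S1pr1 and S1pr3.

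Endothelial cells are the other main source of S1pr1. Of 10 endothelial markers 8 were under 1 CPM in every library, among them Cldn5 and Cdh5. Pecam1 and Esam, the most abundant after Kdr, averaged 0.718 and 0.733 CPM in control. Kdr, a growth factor receptor that neural cells can also express, made up most of the summed level (58.6 ± 8.31 CPM in control, 37.6 ± 9.38 CPM in mimic, adjusted p = 0.0080). The summed level was 48.1 to 70.0 CPM in control and 29.5 to 52.5 CPM in mimic, with 0 markers higher and 2 lower (Kdr and Flt1) of the 7 tested. Of 11 mural and mesenchymal markers 2 were higher and 3 lower, with a summed level of 225 to 296 CPM in control and 127 to 252 CPM in mimic. The most abundant were the collagen genes Col1a2, Col1a1 and Col3a1, none of them called. The 3 lower markers were the contractile genes Acta2 (-2.86), Tagln (-1.74) and Myl9 (-1.17), which moved in the direction of S1pr3. The 2 higher markers were the pericyte gene Rgs5 (1.16) and Cspg4 (0.69). The part of these markers in the S1pr3 result was not tested. Of 11 oligodendrocyte lineage markers 5 were higher and 1 lower, with 421 to 713 CPM in control and 796 to 988 CPM in mimic. Olig1, Olig2 and Cnp were the most abundant, and Olig1 and Olig2, the transcription factors of the lineage, rose by 0.96 and 0.71 on the log2 scale, while Cnp (0.14) was not called. The other higher genes were Pdgfra (0.65), Sox10 (0.76) and Gpr17 (0.49), and the lower one was the myelin gene Mog (-0.36). The summed level, most of it Olig1, moved in the direction of S1pr5, and its part in that increase was not tested.

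The remaining lists were those of microglia and neurons. Of 9 microglial markers 0 were higher and 2 lower, with a summed level of 23.4 to 26.8 CPM in control and 21.9 to 33.2 CPM in mimic. Aif1 and Csf1r were among its most abundant genes, and the defining markers Cx3cr1, P2ry12 and Tmem119 were under 1 CPM in every library. Of 10 neuronal markers 1 was higher and 2 were lower, with 7292 to 7901 CPM in control and 7732 to 8015 CPM in mimic. Map2, Camk2a and Slc17a7, genes of dendrites and excitatory neurons, were the most abundant.

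Other genes that handle S1P were taken from a list of 13 genes for its turnover and transport, of which 11 were tested. The genes not tested were Apom and the receptor S1pr4, which the list also held. In mimic 1 was higher, 5 were lower and 5 were not called, with a median log2 fold change of -0.12. The share called was 54.5%, against 22.2% of all genes tested, and the list had 4 to 6 calls when single libraries were left out and 4 without a low-count filter. Plpp3, a phosphatase that degrades extracellular lipid phosphates including S1P, was higher, at 209 ± 16.2 CPM in control and 250 ± 12.5 CPM in mimic (log2 fold change 0.26, SE 0.048, edgeR adjusted p = 0.00063). Mfsd2a, a transporter of lysolipids at the blood-brain barrier, fell from 45.7 ± 4.15 to 32.8 ± 1.55 CPM (-0.47, SE 0.054) without overlap. Abca1, a lipid exporter, fell from 159 ± 9.62 to 123 ± 12.9 CPM (-0.37, SE 0.062). Aldh3a2, the aldehyde dehydrogenase that takes up the product of S1P lyase, fell from 91.9 ± 1.21 to 80.2 ± 2.11 CPM (-0.20, SE 0.030), and Abcc1, an exporter that can carry S1P, changed by -0.12 (adjusted p = 0.0276). The fifth lower gene was Mfsd2b, the S1P exporter of blood cells, at -0.39 and with only 55.8 counts on average. Among the phosphatases of the list, Sgpp1 (-0.029), Sgpp2 (-0.19), Plpp1 (-0.048) and Plpp2 (0.35) were not called.

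Ceramide and sphingosine supply was a list of 31 genes with 30 tested. They make, consume or regulate ceramide, from which sphingosine, the substrate of both kinases, is freed. In mimic 3 were higher, 4 were lower and 23 were not called, with a median of -0.0027. The share called, 23.3%, was close to that over all genes. The number called was 10 without control 1 and 12 without controls 1 and 2, but calls over all genes rose as well, from 2163 higher and 2019 lower with all libraries to 2697 and 2453 without control 1 and to 3058 and 2892 without both. Asah1, the lysosomal ceramidase that frees sphingosine, rose from 67.9 ± 3.44 to 87.2 ± 2.62 CPM (log2 fold change 0.36, SE 0.038, edgeR adjusted p = 2.5e-06), and Cers2 (0.24), a synthase of very long-chain ceramides, and Sptssa (0.18), a small subunit of serine palmitoyltransferase, rose too. The sphingomyelin synthases Sgms2 and Sgms1 were lower at -0.45 and -0.23, as was the ceramide synthase Cers4 at -0.22. The fourth lower gene was Ormdl1, a regulator of serine palmitoyltransferase, at -0.52 with 94.75 counts on average. The first enzymes of the pathway, Sptlc1 and Sptlc2, were not called (0.028 and -0.048).

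Receptor signalling, the G proteins and regulators that S1P receptors act through, was a list of 15 genes, all tested. In mimic 2 were higher, 2 were lower and 11 were not called, with a median of -0.021. The share called, 26.7%, was near the 22.2% of all genes, and the number called was 2 without mimic 1 and 7 without controls 1 and 2. Calls over all genes were 1880 higher and 1646 lower without mimic 1, and 3058 higher and 2892 lower without controls 1 and 2. Gna13, a G12/13 subunit, rose from 104 ± 6.65 to 129 ± 1.34 CPM (log2 fold change 0.31, SE 0.040, edgeR adjusted p = 1.9e-05) and Rac1, a small GTPase, by 0.12 (adjusted p = 0.0094). Rac1 shares 2309 of its 4496 bases of exon with Daglb on the opposite strand, and whether the counting used strand is not stated. The part of Daglb in the Rac1 value was not tested. Arrb2, an arrestin of receptor desensitisation, was lower at -0.19 (adjusted p = 0.0220) and Gnai1, a Gi subunit, at -0.15 (adjusted p = 0.0293). Rhoa (0.063) and Gnaq (-0.021) were not called.

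The same search for mimic sites in these 3 lists found a site in 7 of the 11 genes that were lower. Of all tested genes with a 3′ UTR that were lower, 636 of 1903 held a site. The 7 genes were Mfsd2a, Abcc1, Abca1, Aldh3a2, Ormdl1, Cers4 and Sgms1. It found none in the 6 genes that were higher and a site in 11 of the 39 that were not called. Of all tested genes with a 3′ UTR that were higher, 386 of 2051 held a site. Called or not, 3308 of 15082 did (21.9%). The lower genes of receptor signalling, Arrb2 and Gnai1, held none.

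**Figure D5:**
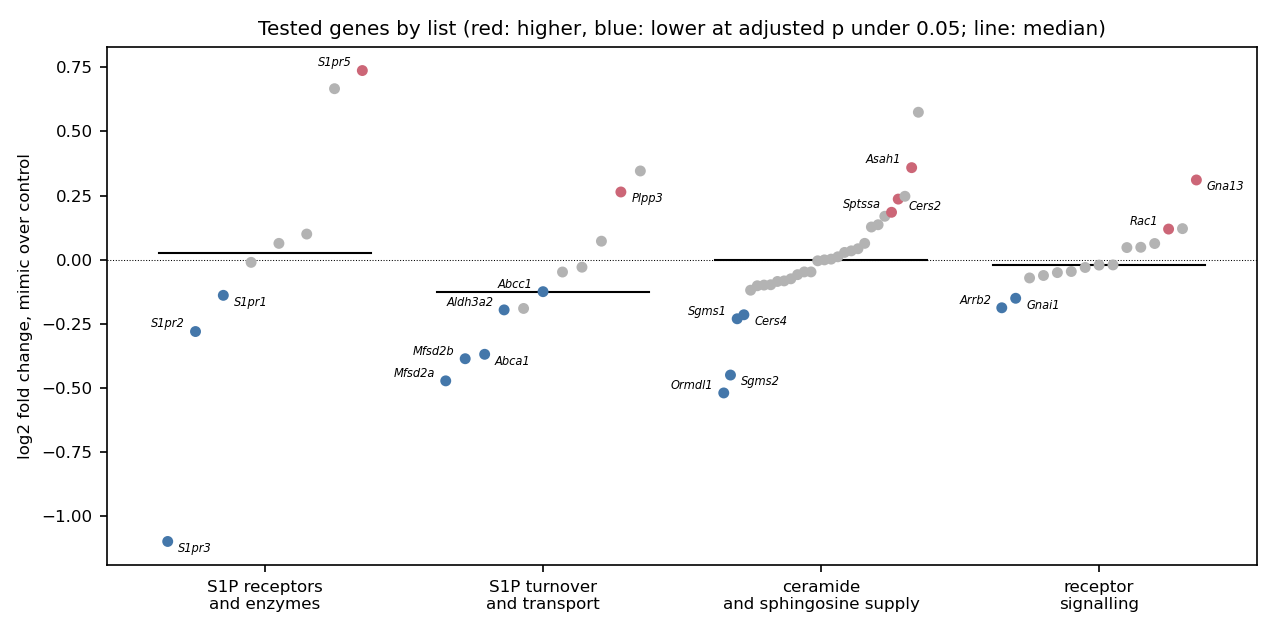
Log2 fold change (mimic over control) of every tested gene in the members and the 3 lists, sorted within each list, red where higher and blue where lower at an adjusted p under 0.05 and grey otherwise, with the median as a line. S1pr3 is the lowest point at -1.10 and no gene of the 3 lists is below -0.52.

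The members did not vary as 1 block across libraries. For each member with at least 100 counts on average, the likeness to 12370 other genes was the lower of the Pearson correlations of log2 CPM within the 6 control and within the 6 mimic libraries, given as a description over points that share depth and culture. The genes most like S1pr3 were Prune2 (0.955), Samhd1 (0.944) and Col11a1 (0.941), and all 3 were also lower in mimic. Those most like S1pr1 were Zscan20 (0.896), Inpp1 (0.877) and Fam84b (0.828), none of them called. For S1pr2 they were Lsm1 (0.788), Kcnmb4os2 (0.768) and Pigx (0.765), and for Sgpl1 Dido1 (0.857) and 2510002D24Rik (0.812). Likeness was highest for Spns2, with Plod1 (0.979), Zfp746 (0.969) and Tmem63b (0.960), and for Sphk2, with Npdc1 (0.975), Ogfod3 (0.968) and Apc2 (0.966). Both of these members had their highest control value in control 1. No member was among the nearest genes of another member.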

How the data were processed

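The authors aligned 50 bp single-end reads to mm10 with STAR 2.5.2b and counted them per gene with featureCounts (Subread 1.5.1), and deposited the raw counts of 48709 genes in each of 12 samples, which were used here. Whether counting used strand is not stated. The deposited series table holds a normalized signal (counts divided by 1 factor per sample, 18289 genes) and served 1 alternative, on log2 of the signal plus a pseudocount of 1. Its 12 columns were matched to the samples by the code that each sample's own count table carries.

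Genes with at least 5 counts in 6 of 12 samples, the filter of the study, were tested with edgeR 4.0.16 (quasi-likelihood F-test, R 4.3.3, robust, TMM, no covariate), with Benjamini-Hochberg adjustment over all 18847 genes. The study used DESeq2, run here as an alternative (1.42.0), as was limma (3.58.1) on the normalized signal. On simulated data 195 of 200 changed genes were recovered with 12 false calls. Gene models were GENCODE M21, and 48349 genes were named. Oligonucleotide sequences came from the study's reagent list.

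The members and lists were chosen with earlier results of these data known. Named genes were all members, up to 4 higher and 4 lower genes of each of the 3 pathway lists (largest change, adjusted p under 0.05, at least 100 counts), the 3 most abundant genes of each marker list (astrocyte, reactive astrocyte, endothelial, mural and mesenchymal, oligodendrocyte lineage, microglia, neuron), and the 3 genes most like each member; 2 genes that this rule names are not reported here. Sgpp1, Sgpp2, Plpp1, Plpp2, Mfsd2b, Ormdl1, Sptlc1, Sptlc2, Rhoa, Gnaq, Flt1, the called mural and oligodendrocyte lineage markers, overlapping neighbours and markers near 0 were added after their values were seen. Replicate numbers did not pair the samples.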

Additional observations from a re-analysis of the deposited data

Results flagged for a closer look

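Of 44 group values examined (the 8 members, the marker lists, the receptor and kinase shares and the receptor sum, in each group), 5 had a library whose gap to its nearest neighbour, relative to the whole range, was above the 95% critical value of Dixon's test for 6 libraries. Chance gives about 1 in 20, or 2.2 of 44. Among the members this was Sphk1 alone. Control 1 had 4.75 CPM of Sphk1, against 1.32 to 2.47 CPM in the other 5 controls. The same library had 713 CPM of oligodendrocyte lineage markers, against 421 to 451 CPM in the others. Control 2 was low in astrocyte markers, at 3778 CPM against 4176 to 4344 CPM, and in neuronal markers, at 7292 CPM against 7793 to 7901 CPM. Mimic 3 was high in astrocyte markers, at 5963 CPM against 5637 to 5747 CPM.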

How the results depend on the processing

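S1pr3 was lower and called in all 19 alternatives. Without a low-count filter S1pr2 was not called (-0.28, adjusted p = 0.0601). With the replicate block S1pr5 was not called (0.73, adjusted p = 0.0695), Sphk1 was called (0.68, adjusted p = 0.0046) and receptor signalling had 2 calls instead of 4. The block changed no other member's call. The replicate numbers did not pair the samples: same-numbered deviations correlated between -0.24 and 0.33, and none of the 6 same-numbered pairs had the highest correlation. Without control replicates 1 and 2, S1pr2 was -0.26 (not called), Sphk1 0.89 and Sphk2 0.18 (both called) and Spns2 0.043, and calls were 12 for ceramide and sphingosine supply (7 with all libraries) and 7 for receptor signalling, while calls over all genes rose too, to 3058 higher and 2892 lower from 2163 and 2019. Matches to bases 2 to 7 gave 1 site for the negative control, in Sphk2, instead of 0.

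Leaving out each library in turn gave ranges of -0.16 to -0.12 for S1pr1, -0.33 to -0.23 for S1pr2, 0.59 to 0.84 for S1pr5, 0.56 to 0.96 for Sphk1, 0.070 to 0.14 for Sphk2 and -0.031 to 0.022 for Spns2, positive without control 1, control 2 or mimic 2. Receptor signalling had 2 to 5 calls (2 without mimic 1). The causes were not tested. S1pr5 was not tested with at least 10 counts in all libraries, and its 3 to 24 counts, like those of S1pr2 and Sphk1, limit what the depth can show.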
